A study of Mus musculus with 8 samples.

Results

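The genes described here encode the NF-κB transcription factor subunits, the IκB proteins that bind them and A20, the best-known feedback brake of the pathway. They were chosen by symbol, *Nfkb1*, *Nfkb2*, *Rela*, *Nfkbia*, *Nfkbib*, *Nfkbie*, *Nfkbid*, *Nfkbiz*, *Bcl3* and *Tnfaip3*, and are 10 of the 24059 gene symbols counted. All 10 had enough counts to be tested, with 14934 genes tested in all. The RNA came from resting bone marrow–derived mast cells (BMMCs) of C57BL/6 mice of 6 to 8 wk, differentiated with IL-3 for at least 4 wk, transfected with Cas9-gRNA ribonucleoproteins (RNPs) and kept in culture for 1 wk. Scrambled RNP samples (n = 4), labelled *Zc3h12a* WT, received a non-targeting crRNA, and *Zc3h12a* RNP samples (n = 4), labelled *Zc3h12a* KO, received crRNAs against *Zc3h12a*, the gene of the endoribonuclease Regnase-1, for which the methods list 3. Cells of 4 mice each received both RNPs, and the replicate number was used to pair the samples. The transfected cells were analysed as a bulk population, with no selection of edited cells described for the RNA samples.

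In resting cells, dimers of Rel family subunits are held in the cytoplasm by IκB proteins. Signals from the IgE receptor, Toll-like receptors or TNF activate the IκB kinases, the IκB protein is degraded, and the dimers enter the nucleus, where they switch on inflammatory genes and also the genes of their own inhibitors. A separate group of IκB proteins (IκBNS, IκBζ and BCL3) acts inside the nucleus and tunes which NF-κB targets are transcribed. The mRNAs of *Nfkbid* and *Nfkbiz* are established substrates of Regnase-1, which cleaves transcripts at stem-loops in their 3′UTRs, so that the comparison of the RNPs asks how the family behaves when this RNase is targeted.

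Total counts were 19610240 to 33986762 per scrambled RNP sample and 23712029 to 28564062 per *Zc3h12a* RNP sample. The targeted mRNA gave no check of the labels, with *Zc3h12a* at 24.9, 38.0, 37.1 and 39.3 CPM (reads of a gene scaled to the TMM-normalized library size) in scrambled RNP replicates 1 to 4 and at 26.8, 41.1, 32.2 and 32.6 after *Zc3h12a* RNP. The cells carried mast cell transcripts, with 11 mast cell marker genes summing to 55570 to 65560 CPM in scrambled RNP samples and 53340 to 56560 CPM after *Zc3h12a* RNP. Marker lists of macrophages (9 genes) summed to 12.6 to 18.6 and 15.1 to 18.03 CPM in the same order, those of B cells to at most 2.71 CPM, of T cells to at most 6.00 CPM and of neutrophils (4 genes) to at most 0.523 CPM. The basophil list summed to 445 to 542 CPM, nearly all of it from *Cd200r3*, while *Mcpt8* and *Prss34*, which define basophils, were at most 8.51 and 2.25 CPM.

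The main result of the comparison was that 0 of the 10 genes passed an adjusted p of 0.05 together with a log2 fold change beyond 0.5 (quasi-likelihood F test of edgeR blocked on replicate number, Benjamini-Hochberg adjustment over all genes tested). In that test 0% of all genes passed. By limma-trend 0 of the 10 genes passed as well, with 0.0067% of all genes passing, all of them lower. At an unadjusted p of at most 0.05, 5 of the 10 genes were reached, 2 of them higher and 3 lower after *Zc3h12a* RNP, where 6.17% of all genes tested were reached (2.12% higher and 4.05% lower). This count depended on the fit. It was 1 without replicate 1 (*Tnfaip3*), 3 without replicate 2, 3 without replicate 3 and 2 without replicate 4. With no replicate block it was 1, with RLE size factors 2 and with no filter 3. It was 5 with limma-trend or at least 10 counts in every sample, and 4 with DESeq2 or library size only. The count over all genes tested moved as well. It was 922 in the main fit and 246, 950, 554 and 819 without replicates 1 to 4. With no replicate block it was 104, and with RLE size factors 605. In the fit of all 8 samples, the genes with a higher level were the nuclear IκB genes *Nfkbid* and *Nfkbiz*, and those with a lower level were *Tnfaip3*, *Nfkbia* and *Nfkbie*. The median log2 fold change of the 10 genes was -0.096, beside 0.038 for all genes tested. *Nfkbia*, *Nfkbie* and *Tnfaip3* were lower in 4 of 4 pairs, as were 8.54% of all genes tested, and *Nfkbiz* was higher in 4 of 4 pairs, as were 4.98%. The groups overlapped for all 10 genes, while 0.924% of the genes tested had groups that did not overlap. In an exact two-sided permutation test over the signs of the pair differences, these 4 genes reached p = 0.13, which is the smallest value that 4 pairs allow, so that this test cannot pass 0.05. In bulk RNA, a smaller number of expressing cells and less RNA per cell cannot be told apart.

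**Figure D1:**
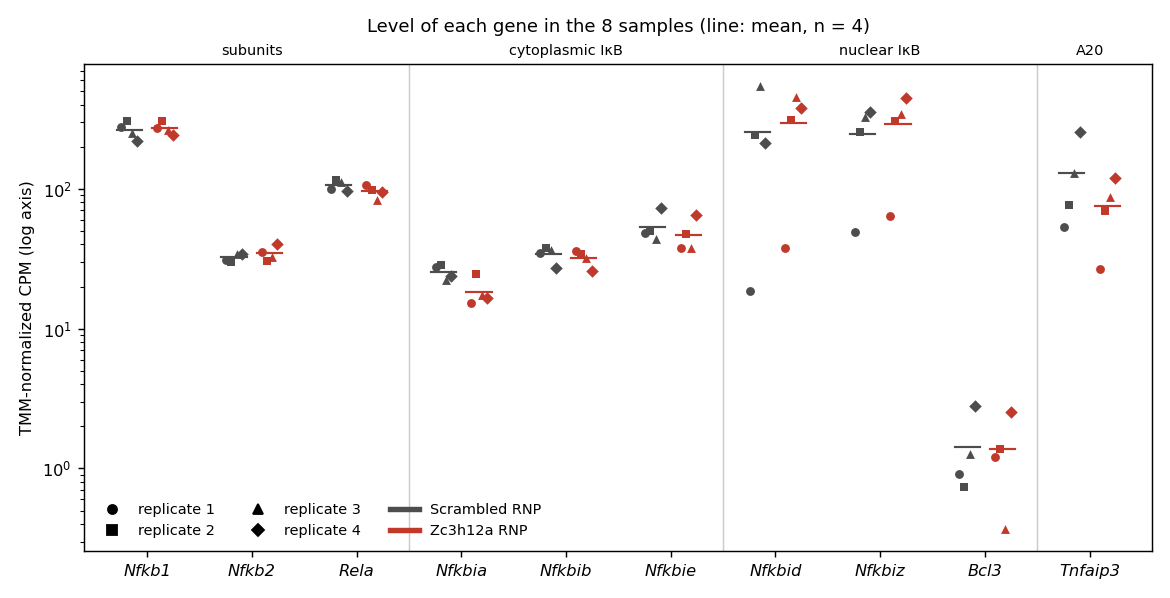
TMM-normalized CPM (log axis) of the 10 genes in scrambled RNP (grey) and *Zc3h12a* RNP samples (red), with a marker shape for each replicate number and a line at the mean of 4 samples. Replicate 1 (circles) lies far below the others for *Nfkbid* and *Nfkbiz* with both RNPs, while *Nfkb1*, *Nfkb2* and *Rela* lie close together in all 8 samples.

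The nuclear IκB genes are described first, since *Nfkbid* and *Nfkbiz* carry the sequence feature that Regnase-1 is known for. *Nfkbid*, which encodes IκBNS, lies on chromosome 7 from 30121150 to 30128171 (GRCm39, plus strand), and *Nfkbiz*, which encodes IκBζ, on chromosome 16 from 55631738 to 55659262 (minus strand). The 3′UTR of the canonical GENCODE transcript of each of the 10 genes was searched, on the transcribed strand, for hairpins with a loop of 3 bases, TAT or TGT, closed by a perfect stem of at least 5 base pairs. *Nfkbid* and *Nfkbiz* each held 2 such hairpins and the other 8 genes held 0. They are shown because they are the only matches in the family, with the loop in capitals:

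*Nfkbid* hairpin, chr7:30127827-30127841, plus strand: gatttcTGTgaaatc

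*Nfkbid* hairpin, chr7:30127855-30127869, plus strand: tgtttcTGTgaaaca

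*Nfkbiz* hairpin, chr16:55632976-55632992, minus strand: ttgtttcTATgaaacaa

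*Nfkbiz* hairpin, chr16:55632949-55632963, minus strand: cactatTATatagtg

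The hairpins of a gene lie close together, starting at bases 215 and 243 of the 559 bases of the *Nfkbid* 3′UTR and at bases 101 and 130 of the 1355 bases of the *Nfkbiz* 3′UTR. A hairpin of this kind was found in 11.6% of 20858 3′UTRs of protein-coding genes. Among 2037 genes with a 3′UTR of similar length to that of *Nfkbid* (0.8 to 1.25 times), 5.15% held at least 1 and 0.393% held at least 2. For *Nfkbiz* these shares were 10.7% and 1.14% of 2983 genes. A match is a pattern of letters and no measurement of binding or cleavage, and the absence of one says only that these letters were not found in that transcript.

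*Nfkbid* was at 18.7, 241, 539 and 212 CPM in scrambled RNP replicates 1 to 4 and at 37.7, 308, 457 and 379.9 CPM after *Zc3h12a* RNP. Replicate 1 was far below the others with both RNPs, and the RNP groups overlapped almost fully. The mean was 253 ± 215 CPM in scrambled RNP samples and 296 ± 182 after *Zc3h12a* RNP (SD, n = 4 each). The fitted log2 fold change was 0.48 ± 0.19 (SE; adjusted p = 0.772, edgeR). Differences within pairs were 1.01, 0.36, -0.24 and 0.84 on the log2 scale, so pair 3 went in the opposite direction. Without replicate 1 the fitted value was 0.36 (edgeR, unadjusted p = 0.162, adjusted p = 1), and with no replicate block it was 0.23. Among the scrambled RNP samples alone, the highest level was 28.8 times the lowest.

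*Nfkbiz* had levels of 48.8, 253, 325 and 352 CPM in scrambled RNP replicates 1 to 4, and 63.9, 304, 345 and 446 CPM after *Zc3h12a* RNP. It was again lowest in replicate 1 and was higher after *Zc3h12a* RNP within every pair, by 0.39, 0.27, 0.086 and 0.34 on the log2 scale. The group means were 245 ± 137 and 289.5 ± 162 CPM (SD, n = 4 each). The fitted log2 difference was 0.27 ± 0.084 (SE; edgeR, unadjusted p = 0.0138, adjusted p = 0.660). Across 11 alternative settings, it stayed between 0.24 and 0.34 and never passed the thresholds, and with a replicate left out its unadjusted p was above 0.05 in each case.

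*Bcl3*, the remaining nuclear IκB gene, lies on chromosome 7 from 19541553 to 19557570 and had a very low mRNA level. It had 22 to 59 reads in scrambled RNP samples and 9 to 78 after *Zc3h12a* RNP, or 0.73 to 2.81 and 0.37 to 2.53 CPM. The fitted log2 difference was -0.10 ± 0.56 (SE), and the pair differences ran from -1.59 to 0.86. With this spread, differences of the size seen for the other genes could not be resolved. The part of the low read number in the spread was not tested.

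Of the cytoplasmic inhibitors, *Nfkbia* (IκBα) is the classical early target that NF-κB induces to end its own response. It lies on chromosome 12 from 55535332 to 55539432 (minus strand). It was at 27.6, 28.3, 22.2 and 23.8 CPM in scrambled RNP replicates 1 to 4 and at 15.2, 24.7, 17.3 and 16.6 CPM after *Zc3h12a* RNP. In contrast to the nuclear IκB genes, it was lower within every pair, and all *Zc3h12a* RNP samples other than replicate 2 lay below all scrambled RNP samples. Its mean was 25.5 ± 2.96 CPM in scrambled RNP samples and 18.4 ± 4.25 CPM after *Zc3h12a* RNP (SD, n = 4 each). The fitted log2 difference was -0.49 ± 0.12 (SE; edgeR, unadjusted p = 0.0040, adjusted p = 0.466). Differences within pairs 1 to 4 were -0.86, -0.20, -0.36 and -0.52. Pair 1 was the widest, and without replicate 1 the fitted value was -0.31 (edgeR, unadjusted p = 0.0589, adjusted p = 1).

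*Nfkbie* (IκBε, chromosome 17, 45866585 to 45874661) was at 48.2, 49.9, 44.0 and 72.5 CPM in scrambled RNP replicates 1 to 4 and at 37.8, 47.2, 37.7 and 65.2 CPM after *Zc3h12a* RNP. It was highest in replicate 4 with both RNPs. Its log2 fold change was -0.20 ± 0.080 (SE; edgeR, unadjusted p = 0.0389, adjusted p = 0.772), and pair differences lay between -0.35 and -0.079. Without replicate 1 the fitted value was -0.11 (edgeR, unadjusted p = 0.517, adjusted p = 1), and the unadjusted p was above 0.05 whichever replicate was left out and in DESeq2's test. *Nfkbib* (IκBβ, chromosome 7, 28457486 to 28466937) had a fitted log2 difference of -0.089 ± 0.080 (SE). Its levels were 34.5, 37.8, 36.6 and 27.2 CPM in scrambled RNP samples and 35.9, 34.1, 32.1 and 25.7 CPM after *Zc3h12a* RNP. Exons of *Nfkbib* overlap those of *Sirt2* and *Ccer2* on the opposite strand by 42 and 314 bases, and the strand setting of the counting is not given in the sources used here.

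*Tnfaip3* encodes A20, a ubiquitin-editing enzyme that shuts down signalling to the IκB kinases, and had the largest fitted difference of the 10 genes in this comparison. It lies on chromosome 10 from 18874201 to 18891405 (minus strand). Its level was 53.1, 77.1, 131 and 256 CPM in scrambled RNP replicates 1 to 4 and 26.7, 68.9, 87.9 and 120.3 CPM after *Zc3h12a* RNP. It was lower after *Zc3h12a* RNP in each pair, and within each RNP group the highest level was over 4 times the lowest, so that the groups overlapped. The mean was 129 ± 90.5 CPM in scrambled RNP samples and 75.9 ± 39.1 CPM after *Zc3h12a* RNP (SD, n = 4 each). The fitted log2 difference was -0.70 ± 0.15 (SE; edgeR, unadjusted p = 0.00211, adjusted p = 0.424). The differences were -0.99, -0.57 and -1.09 in pairs 1, 3 and 4 and only -0.16 in pair 2.

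The call for *Tnfaip3* depended on the test. With DESeq2's Wald test and the same block, it fell by 0.72 on the log2 scale with an adjusted p of 0.000216, the only one of the 10 genes called in a test that called 0.582% of genes (0.0777% higher and 0.505% lower). It also passed with no filter on low counts (-0.67, adjusted p = 0.0193, edgeR) and without replicate 2 (-0.82, adjusted p = 0.000992, edgeR). Over all 11 alternatives the adjusted p was between 0.000216 and 1 and the log2 fold change between -0.82 and -0.57.

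**Figure D2:**
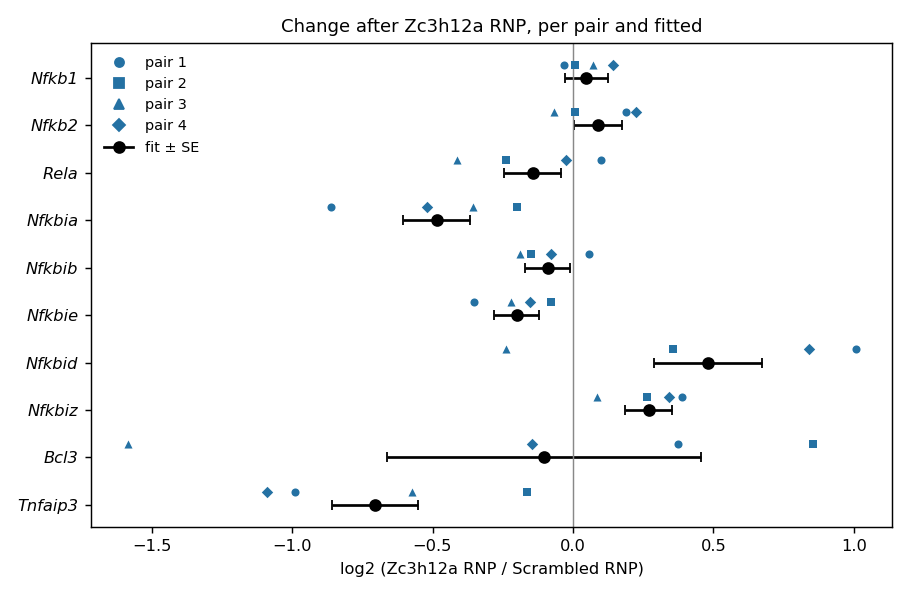
Log2 ratio of *Zc3h12a* RNP to scrambled RNP for each gene, with the fitted value and its standard error in black and the 4 pair differences in blue, each with a marker of its own. *Tnfaip3*, *Nfkbia* and *Nfkbie* lie below 0 in 4 of 4 pairs and *Nfkbiz* above 0 in 4 of 4, while *Bcl3* ranges from -1.59 to 0.86.

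Since *Nfkbia* and *Tnfaip3* are textbook NF-κB targets, the sequence around each annotated start was searched for the κB consensus, which is a run of 3 G, a purine, any pair of bases, a pair of pyrimidines and a pair of C, on both strands. The window ran from 250 bases before the start of the canonical transcript to 50 after it. *Tnfaip3* held matches at 2 positions, *Nfkbia* and *Nfkbie* at 1 each, and the other 7 genes none, while 8.97% of the windows of 21770 protein-coding genes held a match. The sites are shown because they are the family's matches, on the strand of the gene and with the 10 matching bases in capitals:

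*Tnfaip3*, chr10:18891264-18891293, minus strand: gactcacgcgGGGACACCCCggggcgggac

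*Tnfaip3*, chr10:18891151-18891180, minus strand: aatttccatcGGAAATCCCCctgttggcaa

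*Nfkbia*, chr12:55539442-55539471, minus strand: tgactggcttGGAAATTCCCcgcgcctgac

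*Nfkbie*, chr17:45866510-45866539, plus strand: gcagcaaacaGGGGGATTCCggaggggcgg

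The 3 genes with a κB match near the start were the 3 that were lower at an unadjusted p of 0.05 (edgeR). The 2 genes with 3′UTR hairpins were the 2 that were higher at that threshold. None of these 5 genes passed the adjusted p in the same fit, and *Nfkbid* was lower in pair 3. The coincidence of sequence and direction was seen with the values already known and was not tested. Without replicate 1, the unadjusted p of 4 of these 5 genes was above 0.05. Some known κB sites of the other genes may lie outside this short window. The 3′UTRs of *Nfkbia* and *Tnfaip3* each held 2 copies of the AU-rich letters TATTTAT, as did 2.94% and 30.3% of genes with 3′UTRs of similar length (at least 2 copies), and the 3′UTRs of the other 8 genes held 0.

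The DNA-binding subunits were the steadiest part of the family. *Nfkb1* encodes p105, the precursor of p50, and lies on chromosome 3 from 135290264 to 135397742. It was at 278, 304, 249 and 220.1 CPM in scrambled RNP replicates 1 to 4 and at 272, 306, 261 and 243 CPM after *Zc3h12a* RNP. *Rela*, which encodes the p65 subunit (chromosome 19, 5687493 to 5698161), was at 99.5, 116, 112 and 96.4 CPM in scrambled RNP samples and at 106.7, 98.1, 83.8 and 94.8 CPM after *Zc3h12a* RNP. The highest sample was 1.39 times the lowest for *Nfkb1* and 1.38 times for *Rela*, and the RNP groups overlapped for both. The order of the replicates of *Nfkb1* was the same with both RNPs (replicate 2 highest and replicate 4 lowest), with an adjusted p of 0.0954 between replicate numbers in edgeR's test, while that of *Rela* was 0.748.

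The log2 fold changes of these subunits were 0.047 ± 0.076 (SE) for *Nfkb1* and -0.14 ± 0.10 for *Rela*, with an adjusted p of 0.960 for both in edgeR's test. *Nfkb2* encodes p100, the precursor of p52 in the noncanonical pathway, and lies on chromosome 19 from 46292759 to 46303812. It was at 30.8, 30.2, 33.98 and 34.2 CPM in scrambled RNP samples and at 35.1, 30.3, 32.4 and 40.0 CPM after *Zc3h12a* RNP, with a fitted log2 difference of 0.090 ± 0.085 (SE). Its exons share 1933 bases with *Psd* on the opposite strand, so that its level is uncertain where the counting ignored strand. Neither Rel subunit gene outside the 10 reached an unadjusted p of 0.05 in edgeR's test, at 0.12 ± 0.076 (SE) for *Rel* and -0.048 ± 0.16 for *Relb*. *Rel* (c-Rel) was at 105 to 137 CPM in scrambled RNP samples and 111 to 149.8 CPM after *Zc3h12a* RNP, and *Relb* at 7.28 to 10.1 and 6.83 to 10.1 CPM.

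Levels of different genes were compared as CPM per kilobase of the canonical transcript. Ordered by the mean log2 value over the 8 samples, *Nfkbid* came first (136 ± 92.0 CPM per kilobase, SD over 8 samples), followed by *Nfkb1* (56.7 ± 6.30), *Nfkbiz* (66.0 ± 34.8) and *Rela* (37.1 ± 3.75). With this length the 4 genes could not be ordered among neighbours, since the mean log2 difference between adjacent genes was smaller than its SD over samples. Below them, *Nfkbib* was at 24.1 ± 3.20, *Nfkbie* at 20.5 ± 5.06, *Nfkbia* at 13.9 ± 3.21 and *Tnfaip3* at 14.9 ± 10.2 CPM per kilobase. Among these, *Nfkbib* and *Nfkbie*, and *Nfkbia* and *Tnfaip3*, did not differ beyond their spread. *Nfkb2* (4.94 ± 0.486) and *Bcl3* (0.696 ± 0.421) were lowest, the latter by 3.07 log2 units below *Nfkb2* with an SD of 0.87. With the union of all annotated exons as the length, a choice added after the data were seen, *Nfkb1* moved from place 2 to place 4, and the difference between *Nfkbie* and *Nfkbia* fell within its spread. With that length *Nfkbid* lay above *Nfkbiz* (1.00, SD 0.68) and *Rela* above *Nfkb1* (0.57, SD 0.18) beyond their spread, so that the order of the first 4 genes depends on the length used.

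Some of the 10 genes also differed between cultures. Tested over the 3 replicate terms of the same edgeR fit, 4 of the 10 genes differed between replicate numbers at an adjusted p of at most 0.05, namely *Nfkbiz* (0.000365), *Nfkbid* (0.00142), *Tnfaip3* (0.00318) and *Nfkbie* (0.00815). The share over all genes tested was 28%, and it was 42.5% among the better expressed genes (mean log2 CPM over 2), so that the count itself does not set the family apart. Over the 8 samples the highest level was 28.8 times the lowest for *Nfkbid*, 9.59 times for *Tnfaip3* and 9.13 times for *Nfkbiz*, against 1.33 to 1.92 times for *Nfkb1*, *Nfkb2*, *Rela*, *Nfkbia*, *Nfkbib* and *Nfkbie*. A replicate number stands for the mouse, the culture and any batch handled with it, which cannot be told apart.

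The differences of *Nfkbid* and *Nfkbiz* between cultures rested on replicate 1. Without it, only *Tnfaip3* still differed between replicate numbers (adjusted p = 0.0196, edgeR), in a fit in which 9.62% of all genes did. The summed level of 13 immediate early genes, which are transcribed within minutes of a stimulus, was 3048 and 3221 CPM in replicate 1 (scrambled and *Zc3h12a* RNP) and 12560 to 31870 CPM in the other 6 samples. All 13 of these genes differed between replicate numbers in the fit of all 8 samples, beside 28% of all genes tested. The sum does not describe each of them, since *Fosl1* was lowest in replicate 4 (0.476 and 0.649 CPM). *Tnfaip3* was lowest in replicate 1 and highest in replicate 4 with both RNPs, as were *Nfkbiz* and the immediate early genes *Fos* and *Dusp1*. Most immediate early genes were instead highest in replicate 3 with both RNPs, among them *Egr2*, *Junb* and *Nr4a3*. *Junb* was at 4305 and 3779 CPM in replicate 3 (scrambled and *Zc3h12a* RNP) and at 3255 and 2767 CPM in replicate 4. The part of the immediate early genes' levels in the values of the NF-κB genes was not tested.

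For *Nfkbid*, *Nfkbiz*, *Tnfaip3* and *Nfkbia*, the genes of most similar pattern were found by the root mean square difference of log2 CPM, centred on each gene's mean over the 8 samples. *Nfkbid* was most like *Ccl4* (0.27), which encodes a chemokine, then *Tnfaip2* (0.38) and *Egr2* (0.38), an immediate early transcription factor, where *Nfkbid* itself had an SD of 1.77 over the samples. *Nfkbiz* (SD 1.22) was nearest to the cytokine gene *Il1b* (0.29), *Fos* (0.29) and *Fzd8* (0.30). These genes were low in replicate 1 as well, which follows from choosing them by their profile over the 8 samples. *Tnfaip3* (SD 0.97) was nearest to *Dusp1* (0.24), the gene of a phosphatase that switches off MAP kinases, followed by *Vegfa* (0.31) and *Abca1* (0.33). The log2 fold changes of *Dusp1*, *Vegfa* and *Abca1* were -0.69, -0.63 and -0.61. These values are no separate observation, since a choice by profile over the 8 samples, with both RNPs, favours genes with a fold change like that of *Tnfaip3*. *Nfkbia*, with an SD of only 0.35, was nearest to *Riok1* (0.11), *Ankrd9* (0.13) and *Ktn1* (0.13). Within the family, *Nfkbid* and *Nfkbiz* were 0.64 apart, while *Tnfaip3* was 0.74 from *Nfkbiz* and 1.29 from *Nfkbid*.

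**Figure D3:**
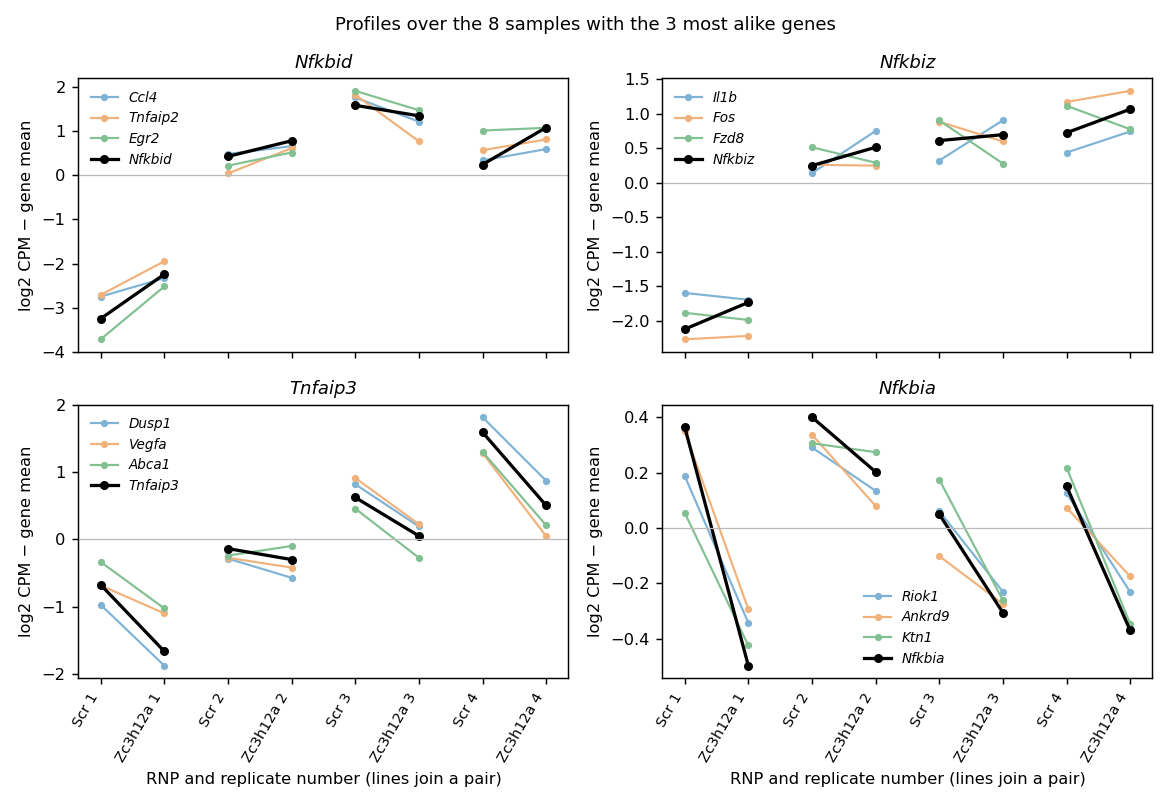
Log2 CPM less the gene's mean over 8 samples for *Nfkbid*, *Nfkbiz*, *Tnfaip3* and *Nfkbia* (black) and the 3 genes of most similar pattern (colours), with a line joining the scrambled RNP and *Zc3h12a* RNP samples of a pair. *Nfkbid* and *Nfkbiz* drop by more than 1.7 log2 units below their mean in replicate 1, whereas *Tnfaip3* and *Nfkbia* lie lower after *Zc3h12a* RNP in each pair.

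Among other genes of the pathway, none passed the thresholds. Of 78 further genes of the pathway, 72 were tested and 0 passed the adjusted p and fold thresholds. At an unadjusted p of at most 0.05 (edgeR), 3 were higher and 4 lower, beside 2.12% and 4.05% of all genes tested. Their median log2 fold change was -0.047. None of 12 genes of the IκB kinase complex and the kinases around it reached an unadjusted p of 0.05, with a median of -0.059 and a range from -0.17 to 0.14. *Bcl10*, an adaptor that carries the IgE receptor signal to the IκB kinases, was at 59.98, 69.0, 79.0 and 59.5 CPM in scrambled RNP replicates 1 to 4 and at 54.7, 54.7, 63.7 and 55.0 CPM after *Zc3h12a* RNP, lower in 4 of 4 pairs (-0.22 ± 0.080, SE; adjusted p = 0.70 in edgeR's test). *Irak2*, a kinase-like adaptor of Toll-like and IL-1 receptors, was lower in 4 of 4 pairs, with a fitted log2 difference of -0.21 ± 0.080 (SE).

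Among the TRAFs and ubiquitin ligases, the direction was mixed. *Traf3*, which restrains the noncanonical pathway, was higher in 4 of 4 pairs (0.32 ± 0.098, SE; adjusted p = 0.645 in edgeR's test), with 21.98 to 32.1 CPM in scrambled RNP samples and 27.2 to 39.9 CPM after *Zc3h12a* RNP. *Birc3*, the gene of cIAP2 and an NF-κB target itself, was lower in 4 of 4 pairs (-0.37 ± 0.12, SE), with 56.5 to 98.0 and 48.3 to 70.2 CPM. Of 14 brakes other than *Tnfaip3*, such as *Cyld* and *Tnip1*, 0 reached an unadjusted p of 0.05, and their median was -0.088. *Cyld*, which encodes a deubiquitinase, was at 45.1 to 63.5 and 48.6 to 61.0 CPM in the same order, and *Tnip1*, which encodes a partner of A20, at 44.6 to 64.5 and 42.4 to 59.6 CPM.

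Of 15 tested transcripts known as NF-κB targets, 10 had a log2 fold change above 0, as did 57.8% of all genes tested, with a median of 0.11. *Tnf* was at 92.4, 814, 611 and 232 CPM in scrambled RNP replicates 1 to 4 and at 169.8, 1035, 945 and 668 CPM after *Zc3h12a* RNP. It was lowest in replicate 1 with both RNPs and higher after *Zc3h12a* RNP in 4 of 4 pairs (0.84 ± 0.18, SE; adjusted p = 0.424 in edgeR's test). Outside the 10 genes, it was the 1 gene of the pathway called in DESeq2's test, which called 0.582% of genes. *Ebi3*, a cytokine subunit gene, was at 2.33 to 3.39 CPM in scrambled RNP samples and 3.57 to 5.59 CPM after *Zc3h12a* RNP, without overlap (0.73 ± 0.27, SE; adjusted p = 0.715 in edgeR's test).

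**Figure D4:**
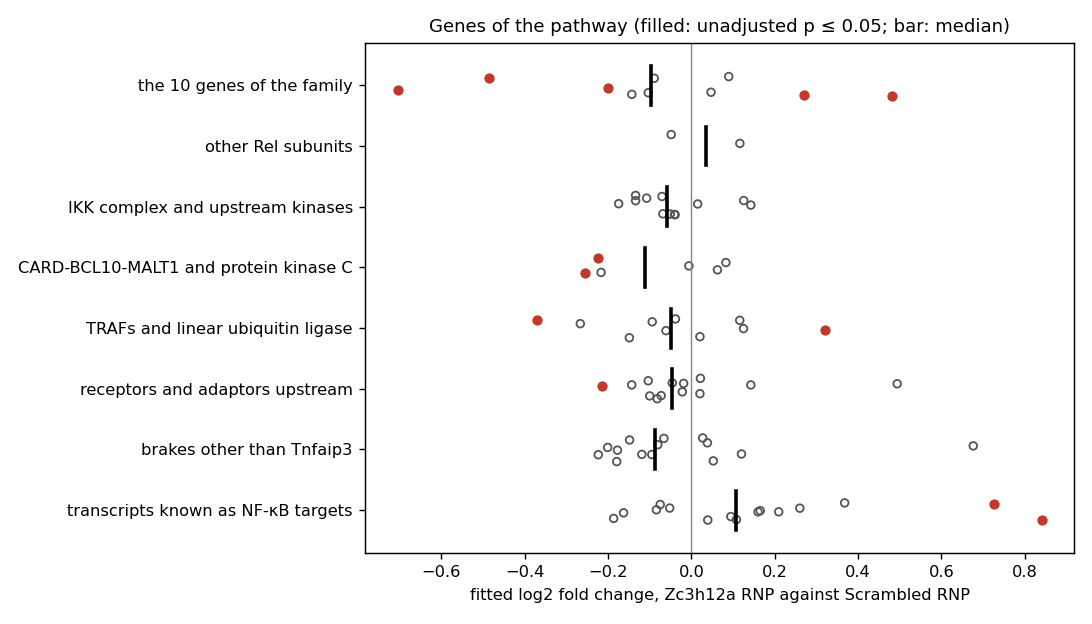
Fitted log2 fold change (*Zc3h12a* RNP against scrambled RNP) of each tested gene of the pathway lists, with filled points at an unadjusted p of at most 0.05 and a bar at the median of each list. The 10 genes of the family have 5 filled points, 3 below 0 and 2 above, and the list of IκB kinases has none.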

How the data were processed

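Poly(A) RNA of 8 BMMC samples was sequenced as paired reads of 50 bases. The authors aligned reads with HISAT2 2.2.1 to GRCm39 (Ensembl release 107), counted them per gene with featureCounts 2.0.1 and deposited the raw counts, without the batch correction that the methods name. The strand setting and the treatment of multi-mapping reads are not given in the sources used here. Counts were tested with edgeR 4.0.16 (R 4.3.3), with TMM normalization, filterByExpr and a model of replicate number and RNP, at an adjusted p of at most 0.05 and a log2 fold change beyond 0.5. Standard errors (SE) were taken as the absolute log2 difference over the root of the F statistic, and log2 CPM used a prior count of 2. The test was checked on simulated counts. Alternatives were DESeq2 1.42.0, limma-trend (3.58.1), no block, other normalizations and filters, and leaving out each replicate. Positions, lengths and sequences come from GENCODE M39 on GRCm39. Figures were drawn with matplotlib 3.10.9.

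Pairing rests on the series design (both RNPs given to cells of each of 4 mice), although no label ties a number to a mouse. After subtracting group means, samples sharing a number correlated at 0.595, 0.0752, 0.624 and 0.0414 over all genes tested, where differently numbered samples reached up to 0.398, and at 0.756, 0.717, 0.728 and 0.719 over 9668 genes with a mean log2 CPM above 2, where they reached at most 0.137. No pair of samples of a group was alike within sampling noise.

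The genes and lists were chosen with earlier results of these data known. All 10 genes are named, with *Rel*, *Relb*, *Tnf*, *Zc3h12a* and *Zc3h12c*, up to 3 genes per list with an unadjusted p of at most 0.05 and 1 direction in 4 pairs, and the 3 genes nearest in pattern to *Nfkbid*, *Nfkbiz*, *Nfkbia* and *Tnfaip3*. *Cyld*, *Tnip1*, *Cd200r3*, *Mcpt8*, *Prss34*, *Zfp36*, *Zfp36l1* and *Fosl1* were named after their values were seen.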

Additional observations from a re-analysis of the deposited data

Results flagged for a closer look

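Of 20 groups of 4 samples examined on the log2 CPM scale, 2 had 1 sample far from the others by Dixon's ratio of gap to range (0.83 is the limit for 4 samples), where chance gives about 1. These were *Nfkbid* in *Zc3h12a* RNP samples, with replicate 1 low (ratio 0.843), and *Nfkbiz* in scrambled RNP samples, with replicate 1 low (ratio 0.833). The sample of the other RNP with the same number was the lowest of its group for both genes.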

How the results depend on the processing

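The count of genes called over the whole table, 0 in the test reported, was 60 with DESeq2's Wald test (8 higher and 52 lower), 40 with no filter on low counts (9 and 31), 3 with at least 10 counts in every sample, and 1 with limma-trend or with RLE size factors. It was between 0 and 137 when a replicate was left out, with the highest count without replicate 2 (80 higher and 57 lower) and 2 without replicate 4. At an unadjusted p of 0.05 it was 922 with edgeR, 625 with DESeq2 and 921 with limma-trend. Of the 10 genes, 1 (*Tnfaip3*) was called with DESeq2, with no filter and without replicate 2 (0 to 1 when a replicate was left out), and of the other pathway genes 1 (*Tnf*) was called under these settings (0 to 1). With no replicate block 0 genes were called, and the block changed no call. The count of the 10 genes that differed between replicate numbers was between 1 and 4 when a replicate was left out, with 1 without replicate 1, and 4 or 5 under the other settings. The sign changed for *Bcl3*, between -0.35 and 0.33 with a replicate left out (0.33 without replicate 3), and *Nfkb1*, between -0.014 and 0.12 (-0.014 without replicate 3). The cause was not tested. The other 8 genes kept their direction under all 11 alternatives (*Bcl3* had a value under 10), and the median over the 10 genes stayed between -0.11 and -0.029. Scaling by library size alone moved the median of all genes to 0.106. In the order of levels, the union of exons put *Nfkbiz* at place 2, *Rela* at 3 and *Nfkb1* at 4. Of the 10 genes, *Bcl3* alone had few reads, with 9 to 78 per sample.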

Other observations

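Among 9 genes of RNases and decay factors, 3 were lower and 0 higher at an unadjusted p of 0.05 (edgeR), beside 4.05% and 2.12% of all genes tested. *Arid5a*, whose protein shields some Regnase-1 substrates, was at -0.24 ± 0.089 (fitted log2 difference ± SE), and *Zfp36l2*, a relative of tristetraprolin, at -0.21 ± 0.081. Both were lower in 4 of 4 pairs. The third gene, *Zfp36l1*, was at -0.45 ± 0.17 and was higher in pair 1 (0.13). *Zc3h12c*, the gene of Regnase-3, was at 36.7 to 47.4 CPM in scrambled RNP samples and 33.8 to 54.0 CPM after *Zc3h12a* RNP. *Zfp36*, the gene of tristetraprolin, was at 58.0, 93.2, 440.1 and 535 CPM in scrambled RNP replicates 1 to 4 and at 64.6, 95.2, 373 and 419.8 CPM after *Zc3h12a* RNP, so that replicates 1 and 2 were low and 3 and 4 high with both RNPs.

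Of 13 immediate early genes, 4 were lower and 1 (*Fosl1*) was higher in 4 of 4 pairs, beside 8.54% and 4.98% of all genes tested. The median log2 fold change of the 13 genes was -0.022, with 6 above 0 and 7 below. Those lower in 4 of 4 pairs included *Dusp1*, *Nr4a3* and *Junb*, at -0.69 ± 0.12, -0.75 ± 0.21 and -0.21 ± 0.071 (log2, SE). *Dusp1* was at 74.1, 119, 257 and 513 CPM in scrambled RNP replicates 1 to 4 and at 39.5, 97.9, 166 and 266 CPM after *Zc3h12a* RNP. The mast cell markers *Hdc*, the gene of histidine decarboxylase, and *Tpsb2*, a tryptase gene, were lower in 4 of 4 pairs too (-0.75 and -0.28). None of these genes passed the adjusted p.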
